A study of Mus musculus with 4 samples.

Results

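The centromere-side flank of the distal tiled region of mouse chromosome 7 runs from position 136488552 to 136899999 of mouse build mm6, a span of 411.4 kb. Its members are all tiling probes of that span, with or without a region label in the array design, and number 4837 of 388160 on the array. The study used circular chromosome conformation capture (4C), in which crosslinked chromatin is cut and ligated and the fragments joined to a chosen locus, the bait, are amplified. The bait was the H19 ICR. One group was R1, an established mouse embryonic stem (ES) cell line in its undifferentiated state, and the other was embryoid bodies (EB), aggregates grown in culture and labelled as differentiated from ES cells for 12 days. The labels give neither group a genetic change or a drug. Each group had 2 arrays, and each array carried a pool of 3 independent samples, so that the spread between arrays is that between pools. On every array the 4C product was labelled with Cy5, and genomic DNA of the same cells cut with MboI, called the input here, with Cy3.

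The H19 ICR is the imprinting control region of the H19 and Igf2 locus. On the maternal copy the protein CTCF binds it and blocks the enhancers downstream of H19 from Igf2, and on the paternal copy DNA methylation prevents that binding. Contacts of such a locus along its own chromosome are usually most frequent nearby and become rarer with distance. In the RefSeq gene order of assembly GRCm38.p6, the genes that follow H19 towards the centromere are Mrpl23, a protein of the mitochondrial ribosome, Tnnt3, a troponin of fast skeletal muscle, Lsp1, an actin-binding protein of leukocytes, Tnni2, a troponin of fast skeletal muscle, Syt8, a synaptotagmin, and Ctsd, a lysosomal protease. No annotation of mm6 was used here, so the sites below are named by position and none is assigned to a gene.

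The labels do not place the bait on mm6. Distances were therefore measured from the centre of the longest site that was positive on all 4 arrays of the distal region, a run of 119 probes from 136992893 to 136997518, called the reference site. The flank begins 95.2 kb from that centre and ends 506.7 kb from it. The mirror flank, at the same distances on the telomere side, runs from 137090411 to 137501858 and holds 4532 probes. The 4C signal is given as log2 units over the median of the tiling probes on each array. A probe was positive at 1 unit, which is 2-fold, and above, and runs were made of 3 or more neighbouring positive probes no more than 300 bp apart.

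ES cells had 4C signal at many places in the flank and embryoid bodies at few. Of the flank probes, 13.8% on ES replicate 1 and 17.9% on ES replicate 2 lay in runs, against 1.695% on each EB array. The groups did not overlap, at 15.8% ± 2.94 (SD, n = 2) for ES and 1.695% for EB, where the number of probes was 82 on both. The share of positive probes was 15.9% and 20.7% in ES against 2.25% and 4.07% in EB. The mean 4C signal over all flank probes, in log2 units, was 0.57 and 0.81 on the ES arrays against 0.16 and 0.21 on the EB arrays. The difference in the mean, EB minus ES, was -0.51 log2 units (-0.41 within replicate 1 and -0.60 within replicate 2). The replicate number also marks the scan day, so these are within-batch values. An exact two-sided permutation test of 2 arrays against 2 cannot go below p = 0.33, and it gave p = 0.333 for this mean and for both shares.

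On all 4 arrays a larger share of the probes lay in runs of 4C signal in this flank than in the mirror flank. With the log2 ratio of 4C to input in place of the 4C signal, the mean excess of the flank was 4.76 percentage points in ES and -0.156 in EB, where the order was thus turned. In the mirror flank, runs took up 4.46% and 6.40% of the probes in ES against 0.221% and 0.596% in EB. The flank minus the mirror flank was thus 9.31 and 11.5 percentage points on the ES arrays against 1.475 and 1.10 on the EB arrays. EB minus ES of that excess was -9.13 points, with p = 0.333 in the exact permutation test, the smallest that this design allows. This excess is a difference in points, and EB had the smaller shares in both flanks. It therefore does not tell whether the ratio of the flank to the mirror flank differed between the groups, which was not tested. In the rest of the distal region the shares were 7.11% and 9.44% in ES against 1.01% and 1.09% in EB. Over all tiling probes they were 0.643% and 0.874% in ES against 0.114% and 0.128% in EB.

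**Figure D1:**
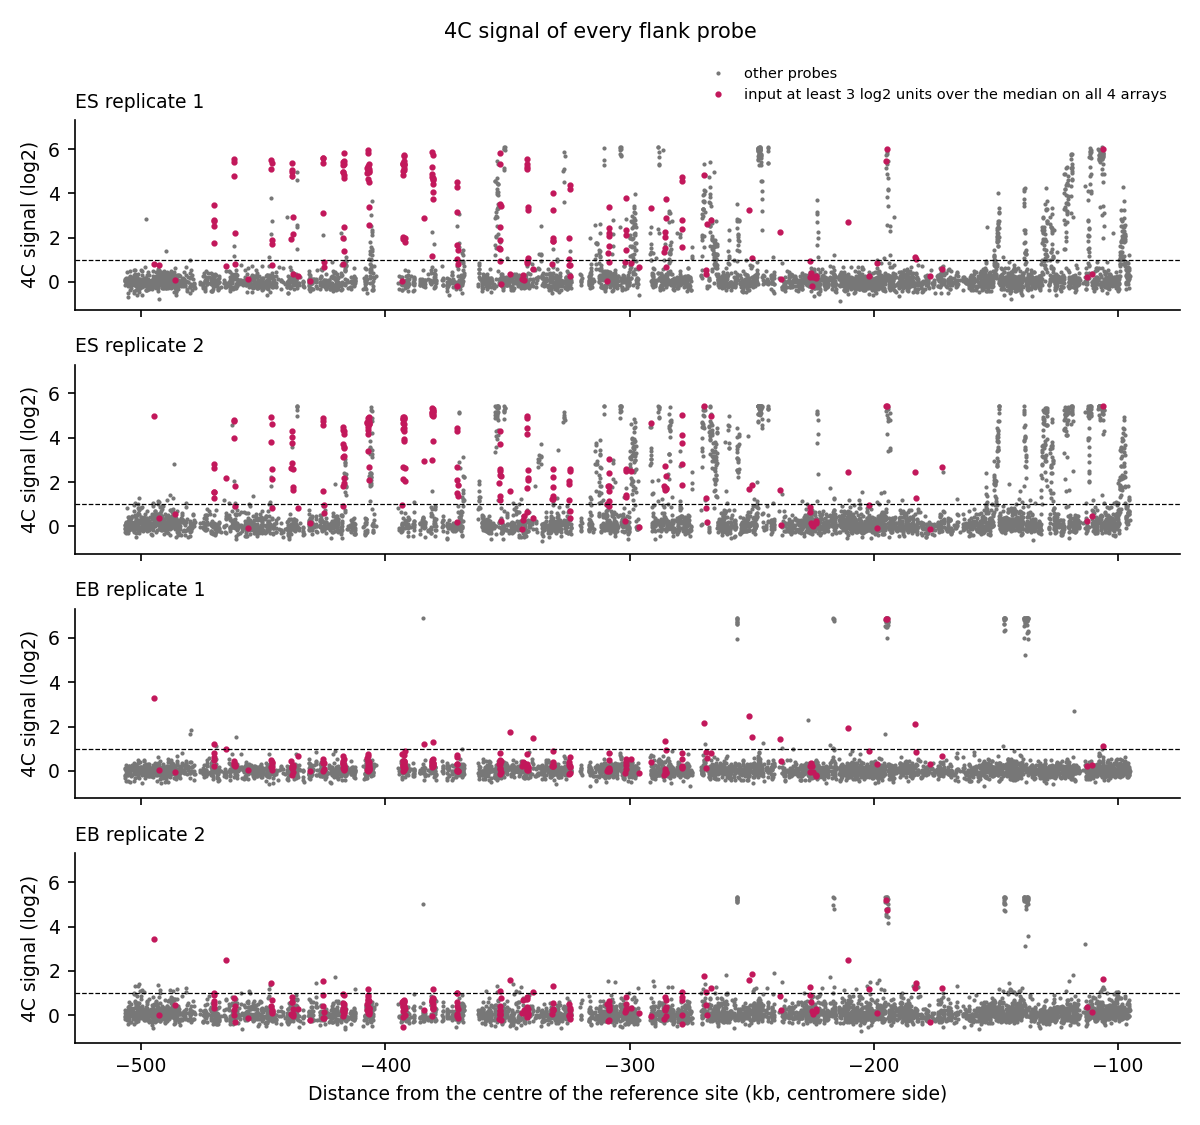
Each point is 1 of the 4837 flank probes, with its 4C signal (log2 over the array median) against its distance from the centre of the reference site in kb, in a panel for each array. Pink points have input at least 3 log2 units over the median on all 4 arrays, and the dashed line marks the 2-fold level. The ES arrays hold columns of signal from 97.0 to 470.2 kb, and the EB arrays hold 6 narrow columns near the upper limit of the scan.

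Signal did not fall steadily with distance. In bins of 50 kb, the ES arrays had 47.8% ± 11.0 (SD, n = 2) of their probes in runs at the inner edge of the flank, where 90 probes lay between 50 and 100 kb from the reference, and 24.6% ± 3.97 between 100 and 150 kb. The share was 4.72% ± 1.67 between 150 and 200 kb and 8.46% on both ES arrays between 200 and 250 kb. It was higher again between 250 and 300 kb, at 30.9% ± 7.63. Farther out it stood at 12.0% ± 2.42, 23.3% ± 4.24 and 18.1% ± 3.42 in the bins that start at 300, 350 and 400 kb. The outermost 2 bins held 1.74% ± 0.25 and 0%. Each value between 250 and 450 kb was above that of the mirror flank at the same distance, where the ES means were 7.99%, 2.04%, 2.66% and 3.61%. Between 150 and 200 kb the order was turned, with 13.7% ± 1.78 in the mirror flank. In the bins from 250 to 450 kb, probes of bright input (described below) made up 3.54%, 7.62%, 12.8% and 11.8% of the flank probes. In the mirror flank they made up 0%, 0.563%, 0.380% and 0.759%. Over all distances, leaving such probes out took the mean ES excess of the flank over the mirror flank from 10.4 to 8.09 percentage points. The EB arrays reached at most 5.27%, between 100 and 150 kb, and had no flank probe in a run beyond 300 kb.

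**Figure D2:**
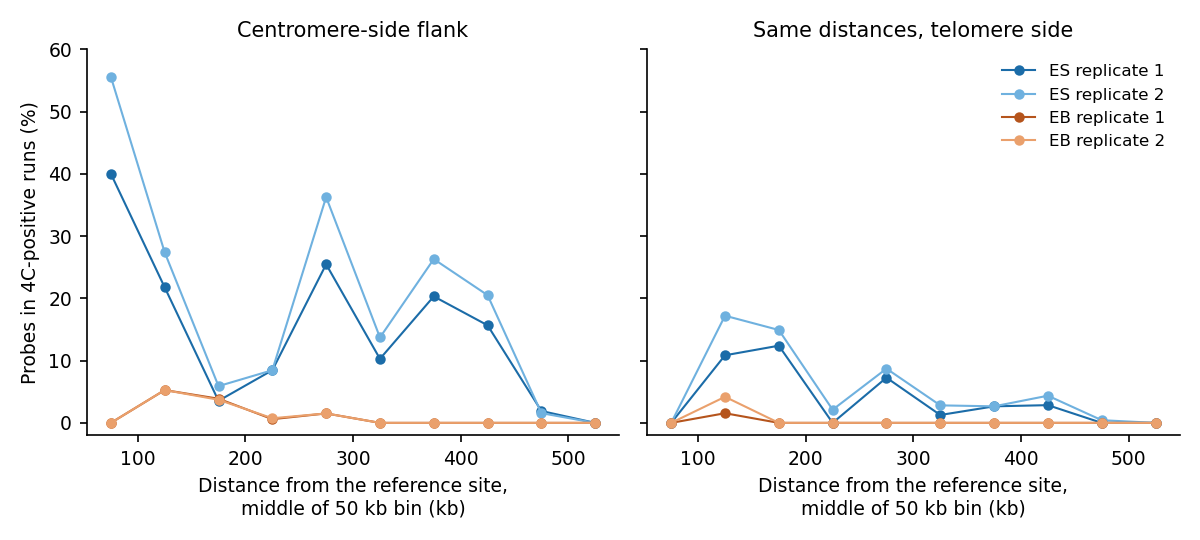
The share of probes in 4C-positive runs (%) is plotted against the middle of each 50 kb bin of distance from the reference site, for the flank on the left and the mirror flank on the right, with a line for each array. The ES lines of the flank rise again between 250 and 300 kb, where the ES mean is 30.9% against 7.99% in the mirror flank.

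The arrays of a group placed their signal on the same probes. Of the 666 run probes of ES replicate 1, 649 (97.4%) were also in runs on ES replicate 2, where they made up 74.9% of 867. The EB arrays had 82 run probes each and shared 81 (98.8% of each). ES and EB shared fewer: 29 probes for ES replicate 1, which is 4.35% of its run probes and 35.4% of those of either EB array, and 36 for ES replicate 2 (4.15% and 43.9%). For scale, runs held 13.8% and 17.9% of all flank probes on the ES arrays and 1.695% on each EB array. Across the flank probes, the 4C signal correlated at r = 0.881 for the pair of ES arrays and 0.903 for the pair of EB arrays. Between an ES and an EB array it was 0.149 to 0.178, given as a description over 4837 probes that are not independent. The 3906 probes in no run on any array had medians of 0.03 and 0.09 log2 units in ES against 0.01 and 0.06 in EB. They were picked by the same 4C values, so that medians close to the array median are partly set by the choice.

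The 42 windows of 10 kb that cover the flank were read from a limma fit over all 3785 windows of the array. In 15 of the 42 windows (35.7%) ES was called higher, at an adjusted p under 0.05 (Benjamini-Hochberg over all windows). Over all windows, 35 were called in that direction, which is 0.925%. In 0 flank windows was EB called higher, against 10 over the array (0.264%). At an unadjusted p under 0.05 in limma, 25 flank windows were higher in ES, against 3.41% of all windows, and 2 were higher in EB, against 0.819%. The lower ES array stood above the higher EB array in 26 of the 42 windows, against 14.5% of all windows, and the reverse held in 3, against 7.93% of all windows. The median difference of the flank windows, EB minus ES, was -0.32 log2 units, and that of all windows was -0.004.

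The called windows lay on both sides of a stretch with few calls. The called window of the largest difference spans 136880000 to 136889999 near the inner edge. Its mean 4C signal was 1.96 and 2.24 log2 units in ES against 0.06 and 0.20 in EB, a difference of -1.97 ± 0.10 (SE; limma adjusted p = 0.00374). Its neighbour from 136870000 to 136879999 had 1.28 and 1.53 in ES against 0.04 and 0.12 in EB. That difference was -1.33 ± 0.09 (SE; limma adjusted p = 0.00733). Between 136760000 and 136869999 no window was called. That stretch still held a large difference in the window from 136860000 to 136869999, with 0.76 and 1.59 in ES against -0.01 and 0.02 in EB. The difference was -1.17 ± 0.27 (SE; limma adjusted p = 0.357).

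The other large differences among the called windows lay farther out. In the window from 136740000 to 136749999 the ES arrays had 1.62 and 1.63 log2 units, the EB arrays 0.10 and 0.17, with a limma adjusted p of 0.000782. The window from 136640000 to 136649999 had 1.33 and 1.62 in ES against 0.07 and 0.11 in EB (limma adjusted p = 0.00761). In these windows, as in the other called ones, the arrays of the 2 groups did not overlap. The window from 136580000 to 136589999 had 1.32 and 1.75 in ES against 0.05 and 0.12 in EB. Those starting at 136690000, 136600000 and 136700000 differed by -1.33, -0.98 and -0.96 log2 units. Those starting at 136610000 and 136570000 differed by -0.77 and -0.61. Of these, the windows starting at 136580000, 136690000, 136600000, 136610000 and 136570000 were not called without probes of bright input (defined with the sites below). The differences at 136580000, 136600000, 136610000 and 136570000 were then -0.85, -0.03, 0.00 and -0.26 log2 units, and that at 136690000 stayed at -1.33 (limma adjusted p = 0.0518).

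The largest measured difference of any flank window did not pass the test. Where windows hold probes near the upper limit of the scan, described below, their differences are lower bounds in size and their order by size is only that of the measured values. In the window from 136720000 to 136729999 the ES arrays had 2.02 and 3.03 log2 units, the EB arrays 0.09 and 0.18. The difference was -2.39 ± 0.33 (SE), and the ES arrays stood 1 unit apart (limma adjusted p = 0.068, and 0.0488 with the replicate number as a block). In the other direction the largest difference was in the window from 136850000 to 136859999, with 0.27 and 0.60 in ES against 1.13 and 1.002 in EB. It was +0.63 ± 0.12 (SE; limma adjusted p = 0.183). The windows starting at 136800000 and 136510000 were higher on both EB arrays by 0.22 and 0.06 log2 units, with limma adjusted p of 0.977 and 1. The number of called windows depends on single arrays: without EB replicate 1 it was 4 and without EB replicate 2 it was 5, all among the 15, and without either ES array all 15 were called. In each such fit the lone array of its group is assumed to vary like those of the other group.

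**Figure D3:**
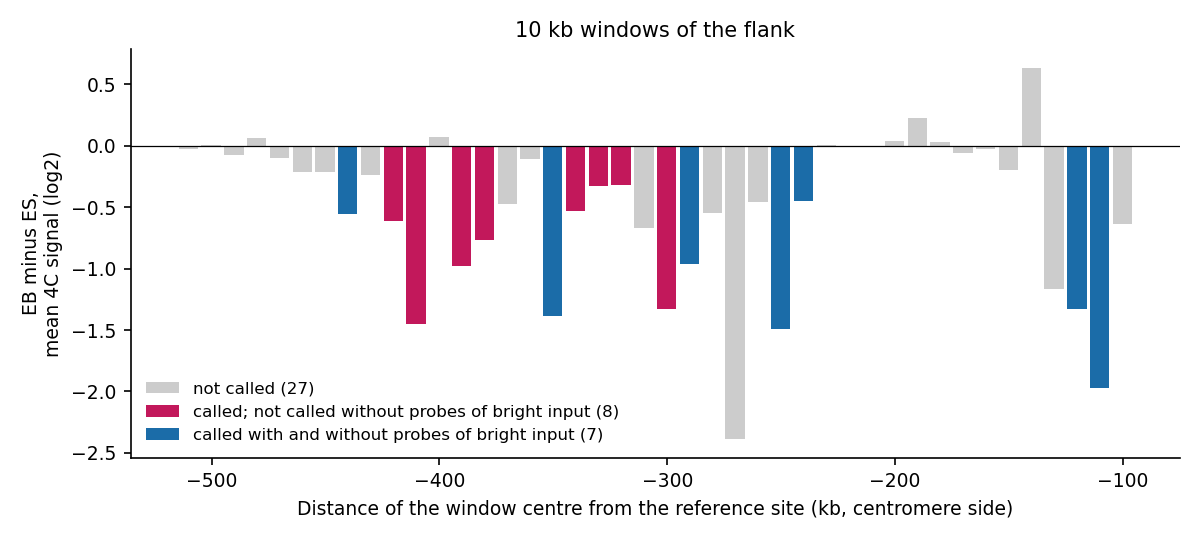
Bars show the difference in mean 4C signal, EB minus ES (log2), of the 42 windows of 10 kb against the distance of their centres from the reference site in kb. Of the 15 windows called by limma, 7 (blue) were also called when probes of bright input were left out and 8 (pink) were not. Bars below 0 are higher in ES, and the tallest bar above 0, at +0.63, is not called.

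A limma fit over single probes called 503 flank probes higher in ES, which is 10.4% of the 4837 against 0.517% of all tiling probes. It called 51 higher in EB, which is 1.05% against 0.0690% of all. Neighbouring probes read the same DNA fragments and are not independent.

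To describe where the signal lay, probes positive on any 2 or more arrays, of either group, were joined into sites by the rule for runs. Sites were found in the same values that they describe, so they carry no test. The flank held 82 sites of 700 probes in all. Of these, 76 sites (614 probes) were positive on both ES arrays alone, 3 (38 probes) on both EB arrays alone and 3 (48 probes) on all 4. The median gap between neighbouring sites was 1694 bp, and 35 of the 81 gaps were under 1 kb. No site lay in the outermost 36330 bp of the flank (474 probes) or in the 42662 bp from 136801874 to 136844536 (459 probes).

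The ES-only sites were short and many. Their median length, from the first probe's position to the last one's, was 235 bp, and the longest measured 1835 bp. The median 4C signal of these sites was 2.45 log2 units on ES replicate 1 and 3.71 on ES replicate 2, against 0.12 and 0.22 on the EB arrays. The highest value of any of the 76 sites was 0.67 on EB replicate 1 and 0.96 on EB replicate 2, under the 2-fold level, as the definition of these sites requires.

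The site with the most probes spans 136747664 to 136749498, 246.6 kb from the reference. Its 44 probes averaged 5.55 and 5.24 log2 units in ES against 0.23 and 0.24 in EB. Its edges were sharp. On ES replicate 1 the probe at 136747648 read -0.09 log2 units and the next one, at 136747664, read 5.51, and on the other side the signal went from 4.08 at 136749498 to 0.24 at 136749550. On ES replicate 2 the same pairs of probes read 0.84 and 4.76, then 4.86 and 0.57.

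Further ES-only sites follow by number of probes. The site from 136724934 to 136726066 had 22 probes, with 3.29 and 4.68 log2 units in ES against 0.30 and 0.38 in EB. The site from 136587836 to 136588836 had 21 probes, with 4.21 and 4.08 in ES against 0.25 and 0.37 in EB. Unlike the other ES-only sites named here, it is of bright input (defined below), with input of 5.60 and 3.98 in ES against 5.52 and 3.69 in EB. The site from 136888653 to 136889397 had 21 probes, with 4.86 and 4.99 in ES against 0.21 and 0.31 in EB. The 20 probes from 136845845 to 136846493 averaged 2.46 and 4.27 in ES against 0.04 and 0.17 in EB, and the 19 probes from 136640738 to 136641478 averaged 3.87 and 5.06 against 0.01 and 0.23. ES replicate 2 exceeded ES replicate 1 by more than 1 unit at both of these and at the site from 136724934.

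The EB arrays had 6 runs each, all between 137.2 and 256.0 kb from the reference, and 27 and 115 positive probes outside runs. Of the 6 runs, 4 began and ended at the same probes on both EB arrays and the others differed by 1 probe at an end. Within these runs the EB signal was at the top of the scale. The scanner's limit lay 6.92 log2 units over the median on EB replicate 1 and 5.32 on EB replicate 2, and 97.6% and 95.1% of the run probes were within 2-fold of it. On the ES arrays, with limits of 6.08 and 5.43, this held for 24.8% and 40.4% of the run probes. Values near the limit are lower bounds, so no order of level between arrays can be read there.

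In 3 of the 6 runs the ES arrays had no run. The 21 probes from 136857649 to 136858377 averaged 6.72 and 5.11 log2 units in EB against 0.00 and 0.10 in ES. The 13 probes from 136848367 to 136848991 averaged 6.76 and 5.14 in EB against 0.08 and 0.10 in ES. The 4 probes from 136778683 to 136778839 averaged 6.84 and 5.09 in EB against 0.64 and 0.92 in ES, where 1 and 2 of the probes were over the 2-fold level. The nearest probe in a run on ES replicate 2 was 52 bp from the first of these runs, 1874 bp from the second and 6381 bp from the third.

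In the other 3 runs both groups had signal, but over different stretches. The 9 probes from 136739067 to 136739331 averaged 6.67 and 5.23 log2 units in EB against 1.65 and 3.35 in ES. The ES arrays also had signal past the end of the EB run, with a break on ES replicate 1. The first probe past it, at 136739559, read 0.09 and 2.46 in ES against 0.06 and -0.20 in EB. The next, at 136739611, read 1.89 and 2.90 in ES against 0.31 and 0.16 in EB. The site from 136799951 to 136801094 averaged 6.73 and 5.01 in EB against 3.33 and 3.58 in ES. Its first 7 probes were positive in EB alone and the 15 that follow on all 4 arrays. At 136800263 the ES arrays read 0.26 and 0.42 log2 units and at the next probe, 136800315, they read 5.71 and 5.43, while the EB arrays read 6.92 and 4.58, then 6.84 and 5.32. All 4 arrays dropped together at the far end, from between 4.15 and 6.73 at 136801094 to between 0.23 and 1.13 at 136801146.

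The third shared site adjoins the EB-only run at 136857649. From 136856609 to 136857181 all 12 probes were positive on both EB arrays and on ES replicate 2 and 11 on ES replicate 1, with 6.59 and 5.08 log2 units in EB against 2.51 and 4.25 in ES. Over the next 8 probes, up to 136857597, EB had 0 positive probes on either array, while 6 and 8 probes were positive on ES replicates 1 and 2. At 136857649 the pattern turned. ES replicate 2 read 2.20 at 136857597 and -0.17 at 136857649, and EB replicate 1 read 0.12 and 6.92 at the same probes. Within about 2 kb the array thus read a stretch of both groups, one of ES alone and one of EB alone, side by side.

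**Figure D4:**
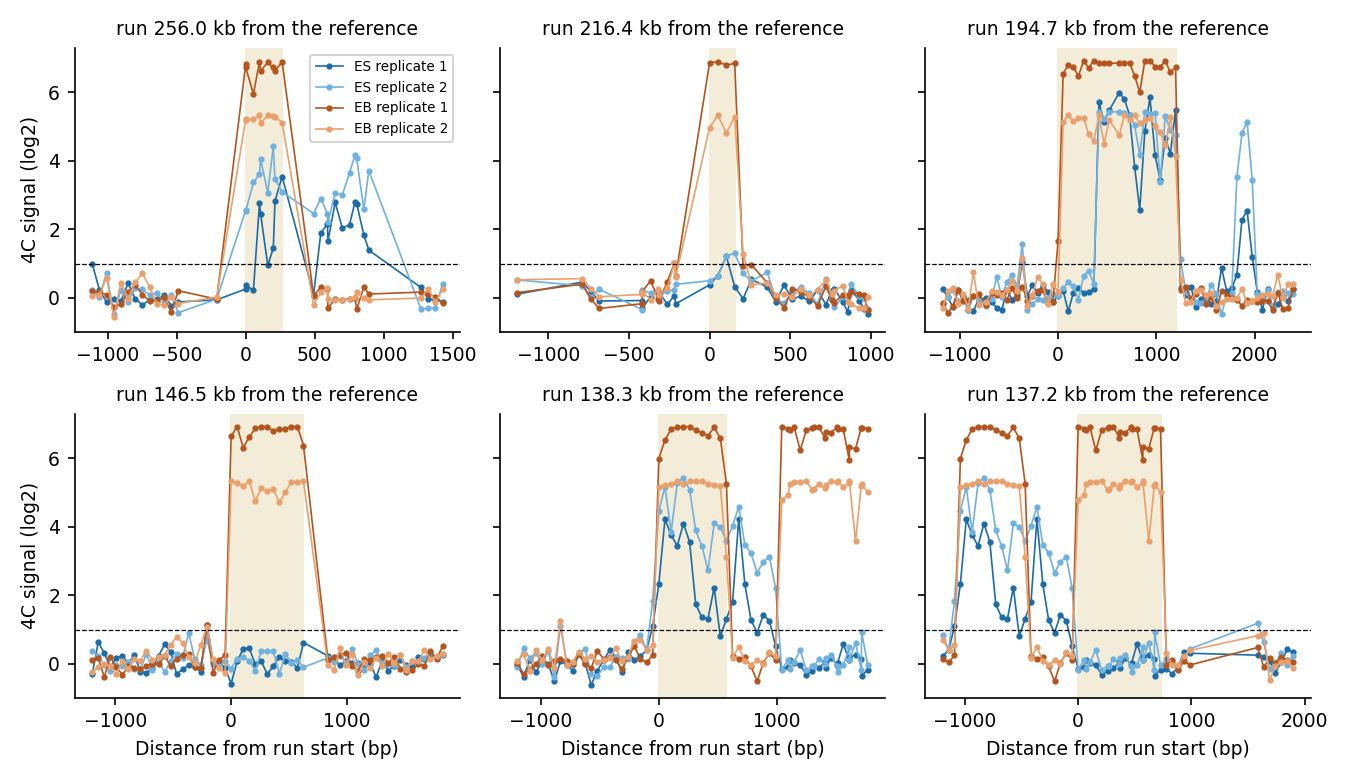
Each panel shows 1 of the 6 EB runs (shaded) and its surroundings, with the 4C signal (log2 over the array median) of each probe on the 4 arrays against its distance in bp from the run's start. Both EB arrays rise to near their upper limits within 2 probes of the run's edges. The ES lines stay near 0 in the runs at 146.5 and 137.2 kb, and start partway through the run at 194.7 kb.

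The ES sites fell into classes by their input signal. Of the 76 ES-only sites, 18 had mean input at least 3 log2 units (8-fold) over the median on all 4 arrays, with medians of 6.08 and 4.47 in ES against 5.70 and 3.97 in EB. All 18 lay between 136524882 and 136716843, which is 278.5 to 470.2 kb from the reference. The level of 3 units was chosen after the values were seen. At these sites ES replicate 1 had the higher 4C signal in 15 of 18, and in 12 of 15 without the 3 sites at which at least 50% of the probes were near the limit on both ES arrays, with medians over all 18 of 3.97 and 3.27 log2 units on replicates 1 and 2. At the other 58 ES-only sites ES replicate 2 was higher in 50, with medians of 2.28 and 4.18. Leaving out the 11 of those 58 sites that were near the limit by the same measure, ES replicate 2 was higher in 47 of 47.

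**Figure D5:**
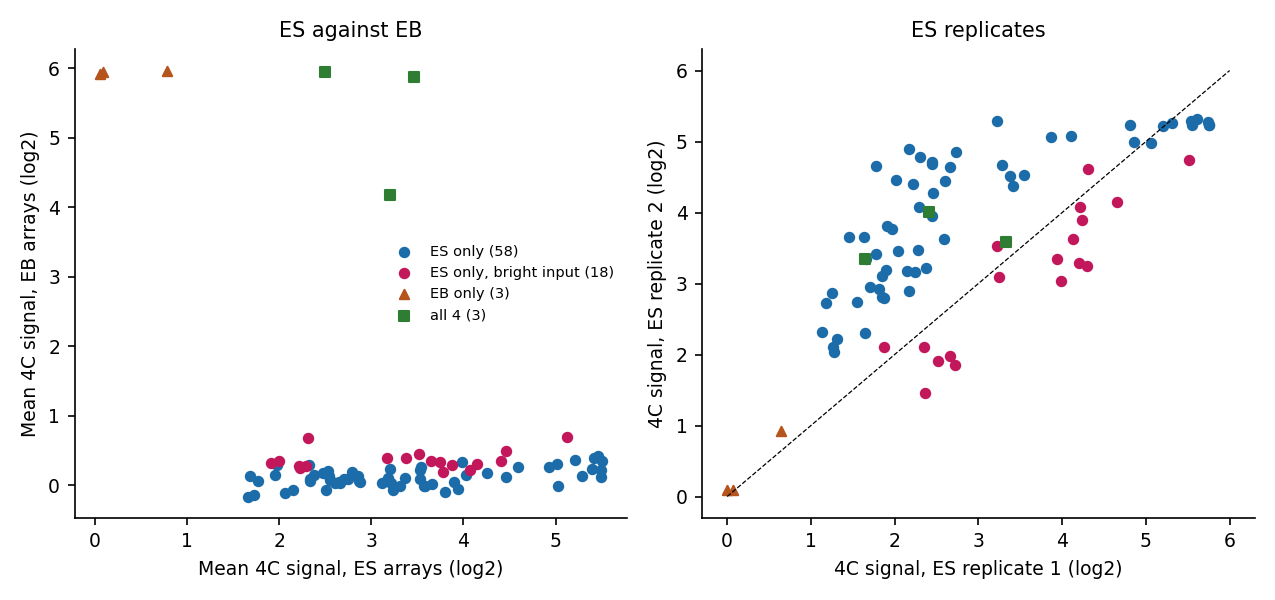
Each point is 1 of the 82 sites. The left panel sets the mean 4C signal of the EB arrays against that of the ES arrays (log2), and the right panel sets ES replicate 2 against ES replicate 1 with a dashed line of equality. ES-only sites of bright input (pink) lie mostly below the line, in 15 of 18, and the other ES-only sites (blue) mostly above it, in 50 of 58.

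Probes of bright input took a larger share of the flank than of the rest of the array. Whether they also bind DNA of other places in the genome, or DNA present in more copies, was not tested, and this bears on the 18 sites above and on the windows that such probes fill. With input of at least 3 log2 units over the median on all 4 arrays there were 198, which is 4.09% of the flank probes, against 0.375% in the mirror flank and 0.944% outside the flank. Of the 198, 74.2% and 80.8% were 4C-positive in ES against 8.08% and 14.1% in EB. These shares pool probes far from the reference and near to it, which differed, as given below. Outside the flank, 18.01% and 26.1% of the probes of the same input class were positive in ES and 22.9% and 23.8% were in EB, where the arrays of the groups overlap. In the flank, limma called 115 of the 198 (58.1%) higher in ES, against 8.36% of the other flank probes.

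Bright probes in the flank stood in small clusters. Joined by the rule for runs they formed 25 clusters, of which 20 overlapped runs on both ES arrays and 0 a run on either EB array. Outside the flank, 3 of 186 such clusters overlapped runs on both ES arrays, 2 of them in the rest of the distal region, which held 9 clusters. The cluster from 136602368 to 136603148, of 16 probes, had 4.66 and 4.15 log2 units of 4C signal in ES against 0.36 and 0.35 in EB. Its input was 6.46 and 4.88 in ES against 6.27 and 4.64 in EB. Within both replicates the measured input was slightly higher in ES there, as it was at 17 of the 18 bright ES-only sites and at 37 of the other 58. At the 18 bright sites the median excess of ES input was 0.22 log2 units in replicate 1 and 0.41 in replicate 2. The scanner's limit for input lay at 6.85 and 5.73 log2 units in ES against 6.62 and 5.815 in EB. Where input is near these limits, as in replicate 1 of this cluster, no order between arrays can be read. The cluster from 136769225 to 136769329, of 3 probes, is the one nearest to the reference, and its 4C signal was 0.52 and 0.55 in ES against 0.17 and 0.94 in EB.

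Of the 25 bright clusters, 24 lay in the far part of the flank. Beyond 265.2 kb from the reference, a limit chosen after the values were seen, 7.32% of 2390 probes were bright, and nearer than that 0.940% of 2447. Of the 175 bright probes in the far part, 78.9% and 85.7% were 4C-positive in ES against 4.57% and 9.71% in EB. Among the 23 in the near part the groups overlapped, at 39.1% and 43.5% in ES against 34.8% and 47.8% in EB. The share of ES probes in runs differed between the parts by less than between the ES arrays, at 14.1% and 18.1% in the far part and 13.4% and 17.7% in the near part. Without bright probes it was 9.53% and 13.8% in the far part and 13.4% and 17.8% in the near part. EB had 0% in the far part and 3.35% on both arrays in the near part. Of the 11 called windows in the far part, 3 were also called without bright probes, and of the 4 in the near part all 4 were. The window from 136600000 to 136609999 differed by -0.98 log2 units with its bright probes, 25.7% of the window, and by -0.03 without them.

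At some sites near the scanner's limit the input differed between the groups in the direction of the 4C signal. At the 11 sites near the limit named above, input was higher in ES than in EB by a median of 1.38 log2 units (range -0.24 to 2.86). Both ES arrays stood above both EB arrays in input at 6 of them. At the other 47 the median was 0.24 (range -0.24 to 1.13), and this held at 14. How often the groups separate in this way in input over the whole array was not counted, so no excess can be read from these counts. The site from 136747664, 1 of the 11, had input of 0.43 and -0.70 in ES against -0.30 and -0.27 in EB. The site from 136751739 to 136751947 had 4C signal of 5.76 and 5.24 log2 units in ES against 0.16 and 0.27 in EB, and its input was 3.28 and 1.51 in ES against 0.12 and 0.27 in EB. The EB-only run from 136848367 went the other way, with input of -0.27 and -0.23 in ES against 2.93 and 0.65 in EB. At the other EB-only runs the groups overlapped in input. The run from 136778683 had 2.81 and 2.17 in ES against 3.10 and 1.68 in EB. The run from 136857649 had -0.39 and -0.37 in ES against 0.11 and -0.55 in EB. The part of the input channel in the 4C signal was not tested. Over the whole flank the median input was 0.48 and 0.39 log2 units in ES against 0.43 and 0.24 in EB.

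Probes without a region label, 174 in the flank, gave the same order of the groups. Of these, 37.9% and 47.1% lay in runs in ES and 5.17% on both EB arrays, against 12.9% and 16.8% in ES and 1.57% on both EB arrays for the 4663 labelled ones. None of the 174 was of bright input. At 24 positions the array carried a probe of each kind. Their 4C signals differed by a median of 0.22 and 0.24 log2 units on the ES arrays against 0.13 and 0.10 on the EB arrays. Both probes lay on the same side of the 2-fold level at 21 and 24 positions in ES and at all 24 in EB. The largest difference was 3.16 log2 units, at 136555034 on ES replicate 1, where the labelled probe read 2.95 and the other -0.21.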

How the data were processed

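The deposited values are scanner intensity units per probe and channel, extracted with NimbleScan (2.3.78 for replicate 1 and 2.3.18 for replicate 2, per the file headers). No label or header names a correction by the authors, so such a step is not given by the sources used here. The design name in the headers gives build mm6. The median 4C intensity of the tiling probes was 969.1 and 1521.4 units in ES and 542.6 and 1637.6 in EB. Of 389359 spots, 1193 random controls were left out and 6 repeats were averaged. Log2 of the deposited 4C intensity was centred on each array's tiling median, with no background correction. It was tested with limma 3.58.1 (lmFit, eBayes) in R 4.3.3, per probe and per 10 kb window of at least 5 probes, and the script was tested on simulated data. Single values were tested with SciPy 1.17.1.

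The regions, the level, the run rule and the tests were chosen with earlier results of these data known. Named sites are the 6 ES-only ones with the most probes and all EB-only and shared ones. Named windows are the 10 called ones of the largest difference and, where none was called, the 3 largest without overlap. The replicate number equals the scan day, per the file headers, and so pairs the arrays; the departures of ES replicate 1 and EB replicate 1 from the means of their groups had a correlation of 0.109 over windows. Alternatives were normexp, quantile and scale normalization, the ratio to input, probe filters, other windows and run rules, the replicate block, robust eBayes and leaving out each array.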

Additional observations from a re-analysis of the deposited data

How the results depend on the processing

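The 4 differences of 1 value per array kept their sign under every alternative run. EB minus ES ranged from -0.736 to -0.332 for the mean 4C signal, from -17.5 to -10.2 points for positive probes, from -16.4 to -9.71 for probes in runs and from -10.7 to -4.92 for the flank minus the mirror flank. After normexp the positive shares of the groups overlapped (32.003% in ES, 18.9% in EB, exact permutation p = 0.667). Counts of calls moved more. Windows called higher in ES, 15 as reported, numbered 3 with the log2 ratio of 4C to input, 4 (of 21 tested, not 42) with windows of 20 kb, 6 with a difference of at least 1 log2 unit and 7 without probes of bright input, an alternative chosen after seeing the data. With the median of each window limma called 0 (13 at an unadjusted p under 0.05). Leaving out 1 array gave 4 to 25. Windows called higher in EB, 0 as reported, numbered 2 after quantile normalization and 0 to 2 with 1 array left out. Probes called higher in ES, 503 as reported, numbered 198 with the ratio and 356 to 871 with 1 array left out. Probes called higher in EB, 51 as reported, numbered 78 after quantile normalization, 6 with robust eBayes and 49 to 72 with 1 array left out. In the paired fit, with the replicate block, 17 and 0 windows and 736 and 59 probes were called higher in ES and EB; the 15 windows kept their calls. With 2 arrays a group, the number of arrays limits the precision, and 24.8% to 97.6% of run probes were near the scanner's limit.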
